A study of Mus musculus with 6 samples.

Results

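The genes examined here are those of the interferon response and of peptide presentation by MHC class I molecules, measured in whole tibialis anterior muscle of mice. Of 42 genes chosen by name, 35 could be measured among the 19938 genes of the array. A gene counted as measured when the array had a probe set whose only symbol in the platform annotation was that gene, and where there were several, the probe set with the highest mean over the 6 arrays stood for it. Of the other 7 genes, Isg15, Gbp2, Igtp, Irgm2, H2-K1 and H2-D1 have only probe sets shared with another gene, and Ifi44 has none in the annotation. The MHC class I heavy chains H2-K1 and H2-D1 are therefore without a value, and the class I genes described are the light chain, the peptide loading genes and their activator.

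Each value is a log2 RMA intensity, that is, the logarithm to base 2 of the brightness of a probe set after background correction and normalization between arrays. A difference of 1 on this scale is a 2-fold difference in brightness. The control group was 3 arrays of muscle from C57Bl6J mice. The other group was 3 arrays of muscle from mice carrying MLC-SOCS-3 on the same background, a transgene for the suppressor of cytokine signalling SOCS-3. The labels state that all mice were 11 weeks old and had been starved for 6 h. They do not spell out the promoter, the number of founder lines, or whether replicates came from separate animals, so the spread between replicates may be technical.

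Interferons are secreted when a cell senses viral nucleic acid or when lymphocytes are activated. Type I interferons bind the receptor chains IFNAR1 and IFNAR2, and interferon gamma binds IFNGR1 and IFNGR2. Both receptors signal through JAK kinases to STAT factors, which bind the interferon-stimulated response element (ISRE) together with IRF9 and the gamma-activated site (GAS) without it. The genes they induce encode antiviral enzymes, GTPases that attack intracellular parasites, and the machinery that loads peptides on MHC class I molecules. SOCS proteins restrain JAK-STAT signalling, and healthy skeletal muscle fibres hold little MHC class I at their surface.

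The DNA letters of the response element tie many of these genes together, so the sequence around them is shown first. RefSeq promoter windows of build GRCm38.p6, from 250 bases before to 50 bases after a transcript start, were found for 26 of the 35 measured genes (30 windows). The letters GAAANNGAAA, the core of the ISRE, were sought on both strands, and overlapping matches were allowed. They occurred in 12 of the 30 windows (40.0%), belonging to 12 genes, and in 1131 of all 32851 windows (3.44%). The letters TTCNNNGAA, the core of the GAS, were in 8 of the 30 windows (26.7%) and in 8.3% of all windows. For each of the 12 genes, 30 bases around the match nearest the transcript start are given 5′ to 3′ on the strand on which the letters read GAAANNGAAA, with the match in capitals.
Oas1a, chr5:120907523-120907552, minus strand: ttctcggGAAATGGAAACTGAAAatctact
Oas3, chr5:120777715-120777744, minus strand: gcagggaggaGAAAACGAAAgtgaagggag
Rsad2, chr12:26456553-26456582, plus strand: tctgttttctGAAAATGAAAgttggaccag
Bst2, chr8:71537580-71537609, minus strand: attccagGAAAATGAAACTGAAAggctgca
Ifit1, chr19:34640794-34640823, minus strand: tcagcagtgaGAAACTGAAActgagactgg
Ifit3, chr19:34583397-34583426, minus strand: gaggaaagtaGAAACTGAAAcagacttaaa
Ifitm3, chr7:141010723-141010752, minus strand: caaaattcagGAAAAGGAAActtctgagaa
Ifih1, chr2:62646206-62646235, minus strand: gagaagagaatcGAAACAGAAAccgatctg
Ddx58, chr4:40239804-40239833, plus strand: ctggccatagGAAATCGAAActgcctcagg
Gbp3, chr3:142559992-142560021, minus strand: gatctggGAAATAGAAACTGAAActgtgtc
Irgm1, chr11:48871428-48871457, minus strand: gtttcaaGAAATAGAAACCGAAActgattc
B2m, chr2:122147538-122147567, plus strand: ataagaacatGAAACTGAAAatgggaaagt

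In Oas1a, Bst2, Gbp3 and Irgm1, 2 matches overlapped by 4 letters, giving a run of 16 bases. Counted from the transcript start, with negative positions before it, the run lay at -20 to -5 in Oas1a, -30 to -15 in Irgm1, -45 to -30 in Gbp3 and -130 to -115 in Bst2. In B2m the match lay at -139 to -130, and in Ifit1 and Ifit3 a second match lay further upstream. In Ddx58, Ifih1 and Ifitm3 the match lay within the first 42 bases of the transcript. No match says only that these letters are absent from a window. Ifit2, whose groups of arrays did not overlap and which was higher on the MLC-SOCS-3 arrays, has windows without these letters and is not printed. The 2 genes below, also without overlap, are shown as examples over all 250 bases before the start. They are Oas1a, higher on the MLC-SOCS-3 arrays, with the ISRE letters in capitals, and Ifi35, lower, whose window has none.
Oas1a, chr5:120907526-120907775, minus strand: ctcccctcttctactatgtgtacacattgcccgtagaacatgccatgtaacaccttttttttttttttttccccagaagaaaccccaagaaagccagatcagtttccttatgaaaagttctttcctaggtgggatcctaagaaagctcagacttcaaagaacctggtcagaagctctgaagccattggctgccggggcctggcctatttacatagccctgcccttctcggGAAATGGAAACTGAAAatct
Ifi35, chr11:101448162-101448411, plus strand: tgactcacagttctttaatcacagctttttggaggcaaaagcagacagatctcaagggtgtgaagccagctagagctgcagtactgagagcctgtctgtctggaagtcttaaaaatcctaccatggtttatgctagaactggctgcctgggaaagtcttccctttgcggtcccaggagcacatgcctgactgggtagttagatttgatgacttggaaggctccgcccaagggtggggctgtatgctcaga

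Before the genes themselves, some facts on the arrays. Array medians lay between 5.98 and 6.04, and the median probe set had a mean of 5.99, which serves below as the mark between dimmer and brighter probe sets. All 10 markers of skeletal muscle fibres, such as the creatine kinase gene Ckm and the myosin gene Myh4, had means between 12.02 and 14.59. Socs3 read 7.37, 7.41 and 7.43 on control replicates 1 to 3 and 7.07, 7.12 and 7.25 on MLC-SOCS-3 replicates 1 to 3. All 3 arrays labelled MLC-SOCS-3 thus lay below the controls for the gene of the transgene, by -0.26 ± 0.07 (SE; limma, adjusted p = 0.80), so every direction below is that of the arrays as labelled. Where the transgene lacks the part of Socs3 that the probes read, this value does not check the labels.

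As a whole, the interferon and class I genes gave small differences, and none passed the test. After Benjamini-Hochberg adjustment in limma, 0 of the 35557 probe sets had a p under 0.05 (0.0%), with the adjusted p of the 35 genes between 0.73 and 0.99. At an unadjusted p under 0.05, 1208 probe sets were lower (3.4%) and 897 were higher (2.52%). Of the 35 genes, 2 were lower at that level, Iigp1 and Ifi35, where 3.5% of all genes were, and 1 was higher, Oas1a, where 1.36% were. With each array centred on its median, 548 genes in all were lower and 389 higher, in place of 698 and 271. In 26 of the 35 genes the mean of the MLC-SOCS-3 arrays was below that of the controls (74.3%), against 56.2% of all genes, and in 23 when arrays were centred, against 48.8%. The median difference of the 35 genes was -0.09, that of all genes -0.02. A difference beyond 0.5 in size was found in 2 of them, Iigp1 and Oas1a, and in 0.476% of all genes.

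Direction differed between the brighter and the dimmer genes of this set. The genes were read on the same 6 arrays, so their directions are not independent of each other, and the split was not tested. Of the 26 genes above the median probe set, 23 had a negative difference (88.5%) and 3 a positive one, Ifnar1, Ifngr1 and Rsad2. Of all genes above that mark, 49.5% were negative. Among the 26 genes, centring the arrays turned Ddx58, Ifnar2 and Irf3 positive. Without control replicate 3, Ddx58, Ifnar2, Irf3 and Irgm1 turned positive and Rsad2 turned negative. Of the 9 dimmer genes, 6 were positive, namely Oas1a, Oas2, Ifit2, Ifit3, Mx2 and Dhx58. Among all dimmer genes 65.2% were negative.

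**Figure D1:**
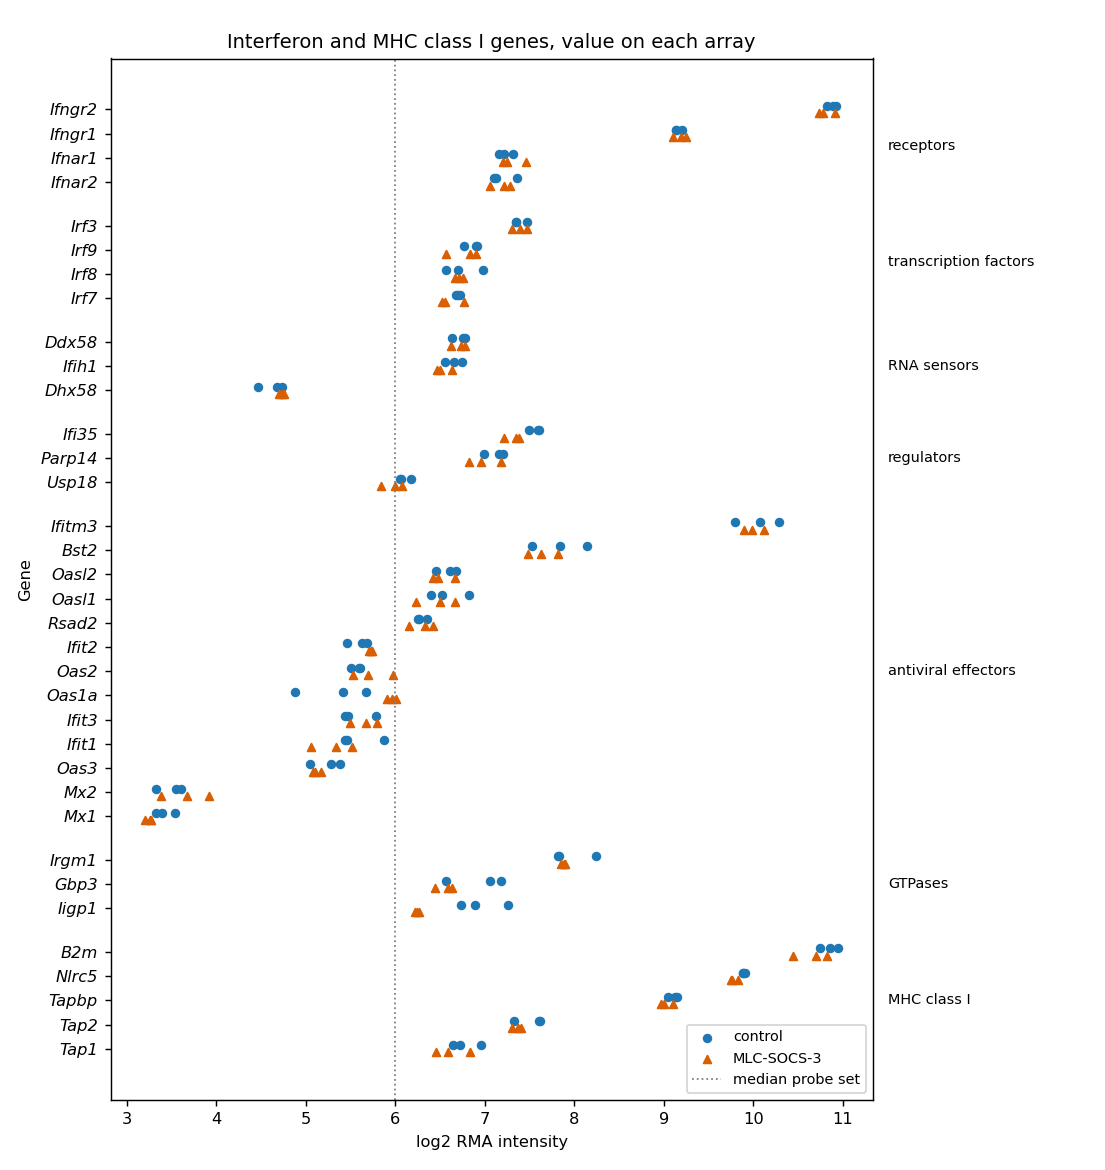
Log2 RMA intensity (x axis) of the 35 measured genes (y axis, grouped by role) on each array; blue circles are the 3 control arrays, orange triangles the 3 MLC-SOCS-3 arrays, and the dotted line marks the median probe set at 5.99. For Iigp1 the triangles lie between 6.22 and 6.26, below the lowest control at 6.73; for most other genes the symbols of the groups overlap.

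The groups of arrays did not overlap for 6 of the 35 genes. All MLC-SOCS-3 arrays lay below all controls for Iigp1, Ifi35, Nlrc5 and Mx1, that is 4 of 35 (11.4%) where 7.76% of all genes did so. They lay above all controls for Oas1a and Ifit2, that is 2 of 35 (5.71%) where 4.52% of all genes did. Both shares are close to those of all genes.

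**Figure D2:**
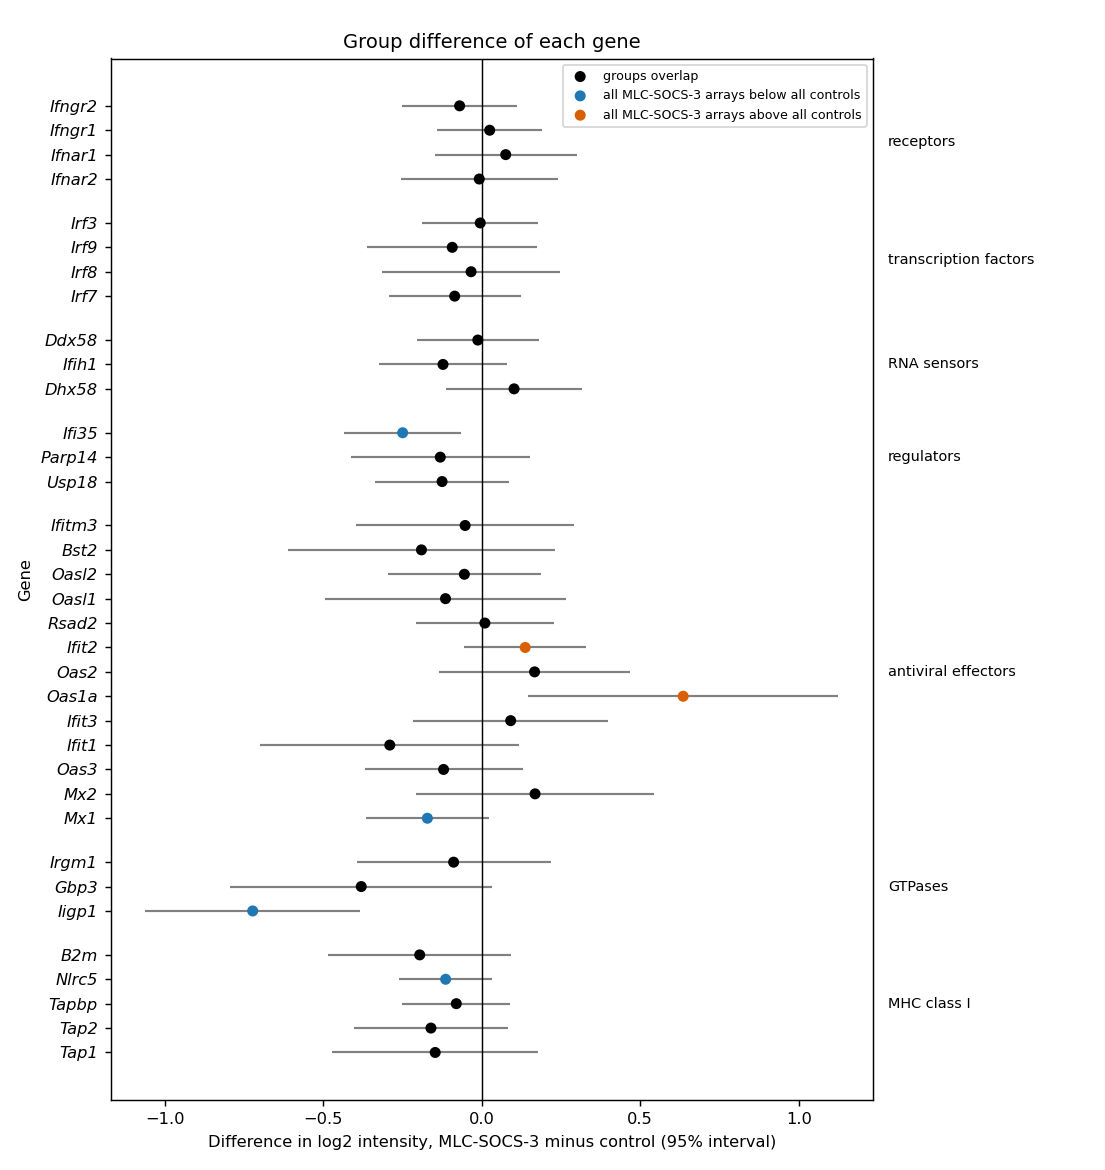
Difference in log2 intensity, MLC-SOCS-3 minus control (x axis), with its 95% interval from limma, for the 35 genes (y axis, grouped by role); blue and orange points mark the genes whose groups of arrays do not overlap. The intervals of Iigp1, Ifi35 and Oas1a leave out 0, and those of all the other genes include it.

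The interferon receptors differed little. Ifngr2, the signalling chain of the interferon gamma receptor, read 10.93, 10.82 and 10.89 on control replicates 1 to 3 and 10.91, 10.74 and 10.78 on the MLC-SOCS-3 replicates. The groups overlapped, with a difference of -0.07 (95% interval -0.25 to 0.11). Ifngr1, the ligand-binding chain, read 9.13, 9.20 and 9.14 against 9.19, 9.11 and 9.25, a difference of 0.03 (-0.14 to 0.19). Ifnar1, of the type I receptor, read 7.21, 7.16 and 7.32 against 7.21, 7.25 and 7.46, a difference of 0.08 (-0.15 to 0.30). The highest of these Ifnar1 values was on MLC-SOCS-3 replicate 3. For its partner Ifnar2 the difference was -0.01. The median of the 4 genes was 0.01, and the intervals of these 4 genes leave out a 1.5-fold difference in brightness.

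All 4 interferon regulatory factors gave negative differences of less than 0.1. Irf3, which is activated by RNA and DNA sensing and starts interferon production, read 7.35, 7.35 and 7.47 in controls and 7.39, 7.30 and 7.47 on the MLC-SOCS-3 arrays. Irf7, which amplifies type I interferon production, read 6.72, 6.68 and 6.70 against 6.56, 6.77 and 6.52. The controls lay within 0.05 of each other for Irf7, and MLC-SOCS-3 replicate 2 was above all of them while replicates 1 and 3 were below. Irf9, which binds the ISRE together with STAT factors, read 6.91, 6.76 and 6.90 against 6.84, 6.91 and 6.56. Its lowest value was on MLC-SOCS-3 replicate 3, and without that array the difference turned from -0.09 to 0.01. Irf8, a factor of myeloid cells, read 6.57, 6.97 and 6.70 against 6.76, 6.71 and 6.67, with the controls spread more widely than the other group. Differences were -0.00469 for Irf3, -0.09 for Irf7, -0.09 for Irf9 and -0.03 for Irf8 (limma, adjusted p between 0.90 and 0.99).

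The cytosolic RNA sensors did not move in 1 direction. Ifih1, which encodes the long-RNA sensor MDA5, read 6.66, 6.56 and 6.74 in controls and 6.49, 6.64 and 6.46 on the MLC-SOCS-3 arrays. Ddx58, which encodes RIG-I, read 6.78, 6.63 and 6.75 against 6.73, 6.78 and 6.62. Dhx58, which encodes LGP2, a regulator of both sensors, was dim and read 4.68, 4.47 and 4.74 against 4.70, 4.75 and 4.74. The groups overlapped for the 3 genes, with differences of -0.12, -0.01 and 0.10. Centring the arrays turned the value of Ddx58 to 0.0070.

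Among regulators of the response, Ifi35, an interferon-induced leucine zipper protein, was lower on every MLC-SOCS-3 array than on any control. It read 7.60, 7.59 and 7.49 on control replicates 1 to 3 and 7.34, 7.21 and 7.38 on MLC-SOCS-3 replicates 1 to 3. The gap between the nearest arrays of the groups was smaller than the spread within the MLC-SOCS-3 group. The difference was -0.25 ± 0.08 (SE, n = 3 a group; 95% interval -0.43 to -0.06), a 1.19-fold lower brightness, with an unadjusted p of 0.0163 and an adjusted p of 0.80 in limma. Usp18, the protease that removes ISG15 from proteins and restrains the type I receptor, read 6.06, 6.05 and 6.18 against 6.08, 5.99 and 5.84, a difference of -0.13. Parp14, an ADP-ribosyltransferase, read 6.99, 7.15 and 7.21 against 6.96, 7.18 and 6.82, a difference of -0.13. For both genes the lowest value was on MLC-SOCS-3 replicate 3, and the groups overlapped.

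The 13 measured antiviral effectors divided into 7 negative and 6 positive differences, with a median of -0.05. With 1 array left out in turn the median ran from -0.05 to 0.0075, and it was positive when replicate 1 of either group was left out. Oas1a, an oligoadenylate synthetase that activates the nuclease RNase L, had the largest positive difference of all 35 genes. It read 4.87, 5.42 and 5.67 on control replicates 1 to 3 and 5.91, 5.96 and 6.00 on MLC-SOCS-3 replicates 1 to 3. The MLC-SOCS-3 arrays lay close together (SD 0.05) and the controls far apart (SD 0.41), with control replicate 1 lowest. The difference was 0.64 ± 0.20 (SE, n = 3 a group; 95% interval 0.15 to 1.12), a 1.55-fold higher brightness, with an unadjusted p of 0.0191 and an adjusted p of 0.81 in limma. Without control replicate 1 it was 0.41, and without MLC-SOCS-3 replicate 3 its unadjusted p was no longer under 0.05. Oas1a belongs to a family of related genes, and the part of such relatives in this value was not tested.

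The other oligoadenylate synthetase genes, on chromosome 5 like Oas1a, did not follow it. Oas2 differed by 0.17 ± 0.12 (SE), Oas3 by -0.12 ± 0.10, Oasl1 by -0.11 ± 0.16 and Oasl2 by -0.05 ± 0.10. Their groups overlapped, and their differences lay on both sides of 0. With 1 array left out, Oas2 came to 0.04 (without MLC-SOCS-3 replicate 1), Oas3 to -0.05 and Oasl2 to -0.0046 (both without control replicate 2), and Oasl1 to 0.0075 (without control replicate 1). Oasl1 and Oasl2 were above the median probe set, and Oas2 and Oas3 below it.

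The IFIT genes, neighbours on chromosome 19 whose products bind foreign RNA, went in different directions. Ifit2 read 5.63, 5.46 and 5.68 in controls and 5.71, 5.74 and 5.73 on the MLC-SOCS-3 arrays. All MLC-SOCS-3 values were above the controls, and the difference was 0.14 ± 0.08 (SE; limma, adjusted p = 0.86). Ifit1 differed by -0.29 ± 0.17 and Ifit3 by 0.09 ± 0.13, with overlapping groups, and Ifit3 came to 0.02 without MLC-SOCS-3 replicate 2. For Ifit1 the controls read 5.44, 5.46 and 5.88 and the MLC-SOCS-3 arrays 5.06, 5.51 and 5.33. The value of 5.88 was on control replicate 3, and without it the difference was -0.15.

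Of the remaining effectors, Ifitm3, a membrane protein that blocks viral fusion in endosomes, read 9.79, 10.29 and 10.08 in controls and 9.89, 10.12 and 9.99 on the MLC-SOCS-3 arrays. All MLC-SOCS-3 values lay inside the range of the controls. Its difference of -0.05 ranged from -0.18 to 0.07 when arrays were left out in turn. Mx1, a GTPase against influenza viruses, was dim and read 3.39, 3.32 and 3.54 against 3.20, 3.27 and 3.26. The groups did not overlap, and the difference was -0.17 ± 0.08 (SE; limma, adjusted p = 0.83), at a brightness that most probe sets exceed. Mx2, also dim, differed by 0.17 ± 0.15. Bst2, which encodes tetherin, a protein that holds budding virus at the cell surface, differed by -0.19 ± 0.17. Without control replicate 3 the value of Bst2 was -0.04, and without MLC-SOCS-3 replicate 2 that of Mx2 was 0.04. Rsad2, which encodes viperin, differed by 0.01 ± 0.09.

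The interferon-inducible GTPases held the largest negative difference. Iigp1, which attacks the vacuoles of intracellular parasites and is induced mainly by interferon gamma, read 6.73, 6.89 and 7.26 on control replicates 1 to 3. On MLC-SOCS-3 replicates 1 to 3 it read 6.26, 6.24 and 6.22. The MLC-SOCS-3 arrays agreed closely (SD 0.02), all lay below the lowest control, and the controls were spread (SD 0.27). The difference was -0.72 ± 0.14 (SE, n = 3 a group; 95% interval -1.06 to -0.38), a 1.65-fold lower brightness. Its unadjusted p of 0.00195 was the smallest of the 35 genes, and its adjusted p in limma was 0.73. With any 1 array left out the difference stayed between -0.84 and -0.57.

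Gbp3, a guanylate-binding protein, read 6.56, 7.05 and 7.18 in controls and 6.63, 6.59 and 6.44 on the MLC-SOCS-3 arrays. Control replicates 2 and 3 stood above the other 4 arrays, while control replicate 1 lay among the MLC-SOCS-3 values. The difference was -0.38 ± 0.17 (SE; limma, adjusted p = 0.83). Irgm1, a regulator of the parasite-attacking GTPases, read 7.82, 7.83 and 8.24 against 7.90, 7.85 and 7.88. Control replicate 3 alone stood apart. Without it, the difference of -0.09 became 0.05. Control replicate 3 was thus the highest array for all 3 measured GTPases, and only Iigp1 was lower than every control on every MLC-SOCS-3 array.

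All 5 measured genes of MHC class I presentation had negative differences, between -0.20 and -0.08, with a median of -0.15. B2m, the light chain of every class I molecule, read 10.75, 10.85 and 10.95 on control replicates 1 to 3 and 10.83, 10.44 and 10.70 on MLC-SOCS-3 replicates 1 to 3. MLC-SOCS-3 replicate 1 lay within the controls and replicate 2 was lowest, and the difference was -0.20 ± 0.12 (SE; 95% interval -0.48 to 0.09). Tap2, a subunit of the peptide transporter of the endoplasmic reticulum, read 7.33, 7.61 and 7.62 against 7.37, 7.40 and 7.30. Control replicate 1 again lay with the MLC-SOCS-3 arrays, and the difference was -0.16 ± 0.10. Tap1, the other subunit, differed by -0.15 ± 0.13, and Tapbp, which encodes tapasin, the bridge between transporter and class I molecule, by -0.08 ± 0.07. Without MLC-SOCS-3 replicate 2 the median of the 5 genes was -0.09, B2m differed by -0.09 and Tap1 by -0.06, and without control replicate 3 Tap1 differed by -0.05. Adjusted p-values of the 5 genes lay between 0.86 and 0.89 in limma.

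Nlrc5, the activator that switches on class I genes, was read by 19 probe sets, more than any other gene of the set. The brightest, which stands for the gene, read 9.89, 9.91 and 9.89 in controls and 9.75, 9.76 and 9.83 on the MLC-SOCS-3 arrays. The groups did not overlap, but the difference was small, -0.11 ± 0.06 (SE; limma, adjusted p = 0.86). That probe set stood far above the others, of which the next had a mean of 7.46 and the dimmest 4.44. Of the 19, 18 gave a negative difference, where 53.2% of all probe sets did, and their median was -0.17. All MLC-SOCS-3 arrays were below all controls for 5 of the 19, where 6.76% of all probe sets were, and 3 had an unadjusted p under 0.05 in that direction, where 3.4% did. The largest was -0.40 ± 0.09 (SE), in a probe set that read 6.19, 6.38 and 6.42 against 6.03, 5.86 and 5.91. The lowest adjusted p of the 19 was 0.746. By the annotation these probe sets belong to 1 gene, and they were read on the same 6 arrays, so they are not independent measurements. Whether the brightest reads Nlrc5 RNA, and why it is so much brighter, was not tested.

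**Figure D3:**
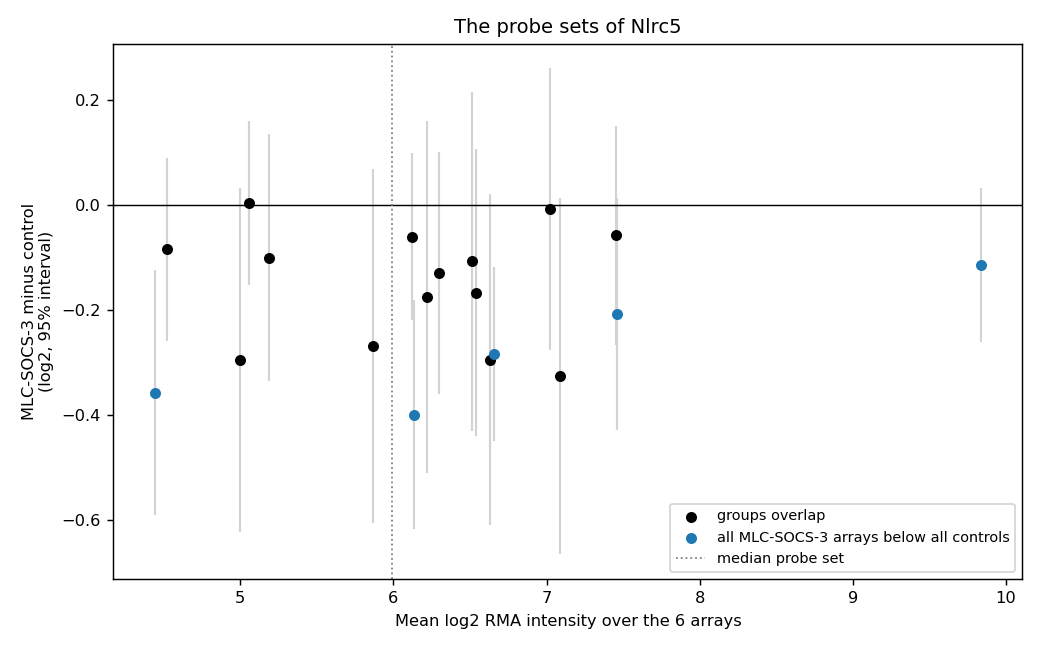
Each point is 1 of the 19 probe sets of Nlrc5, placed by its mean log2 RMA intensity over the 6 arrays (x axis) and its difference, MLC-SOCS-3 minus control, with the 95% interval from limma (y axis); blue points are the 5 whose groups of arrays do not overlap. All but 1 of the points lie below 0, at -0.40 for the lowest, and the probe set that stands for the gene is the one at 9.84.

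The spread between arrays of a group was close to that of all genes. The range of the 3 controls had a median of 0.22 over the 35 genes, against 0.19 over all genes, and that of the MLC-SOCS-3 arrays 0.19, the same as over all genes. Control replicate 3 was the highest of the 6 arrays for 15 of the 35 genes (42.9%), where it was so for 13.7% of all genes, and the lowest for 1 gene. The mean deviation of the 35 genes from their own means was 0.12 on that array, 0.03 on control replicate 2 and -0.04 on control replicate 1. On MLC-SOCS-3 replicates 1 to 3 it was -0.04, -0.01 and -0.05, so that control replicate 1 lay within the range of the MLC-SOCS-3 arrays for these genes. Over all genes, control replicate 1 was the highest array for 25.3%, with a mean deviation of 0.04. On the other arrays the mean deviation over all genes lay between -0.03 and 0.0012. In the GTPases the deviation was 0.47 on control replicate 3, and 0.17 and -0.05 on control replicates 2 and 1. Without control replicate 3, 23 of the 35 differences were negative and their median was -0.06. Without MLC-SOCS-3 replicate 3 the median was -0.05.

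**Figure D4:**
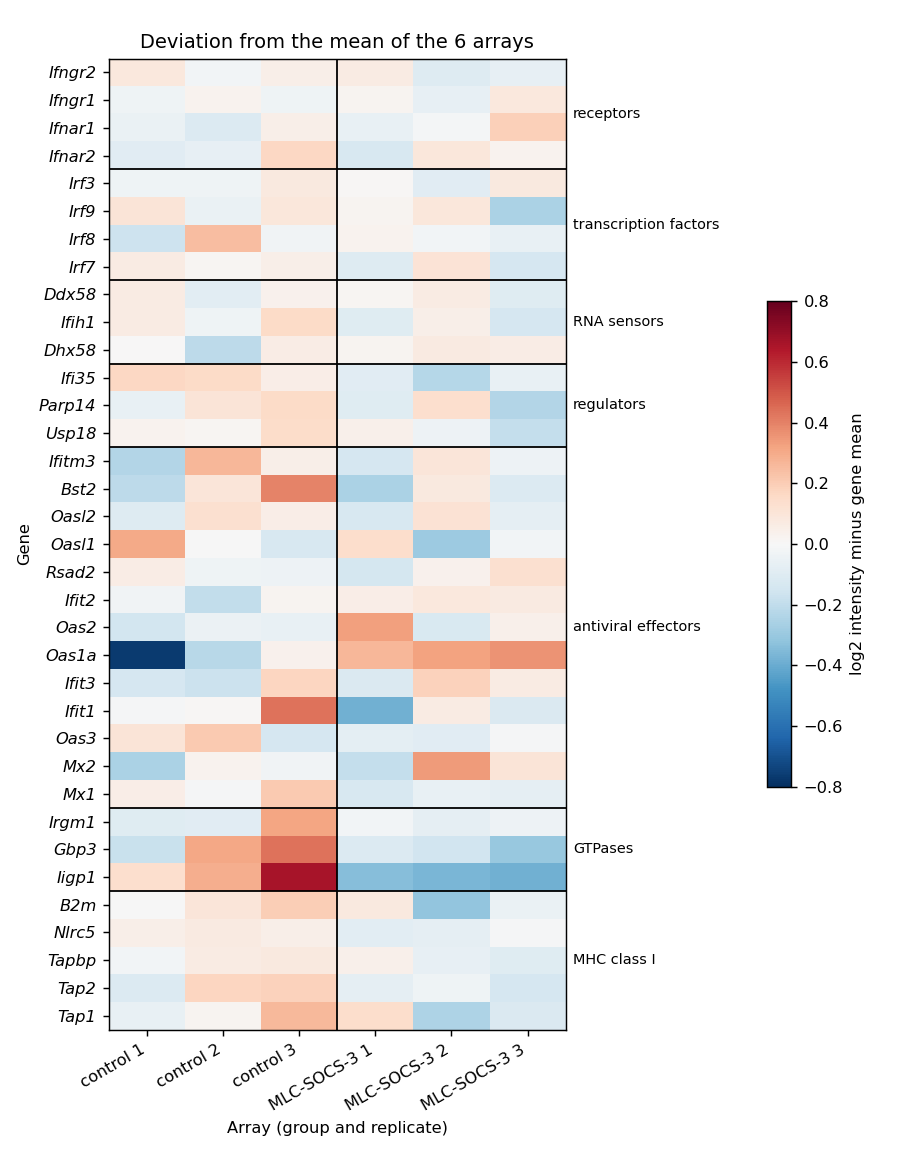
Colour shows the log2 intensity of each of the 35 genes (rows, grouped by role) on each array (columns) minus the mean of that gene over the 6 arrays. Control 3 is the highest array for 15 genes, among them the 3 GTPases, and the MLC-SOCS-3 columns are low for Iigp1 and high for Oas1a.

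Differences lay on both sides of 0 both in genes with the ISRE letters shown above and in genes without them. The 12 genes with a match had a median difference of -0.10, with 9 negative, and ranged from -0.38 (Gbp3) to 0.64 (Oas1a). The 14 genes with a window but no match had a median of -0.06, with 11 negative, and ranged from -0.25 (Ifi35) to 0.14 (Ifit2). The 9 genes without a window, Iigp1 and Nlrc5 among them, had a median of -0.13. No difference between these classes was tested.

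Other genes of the pathway, from lists of names, gave similarly small values, and none passed the test over all probe sets. Of the 9 measured interferon genes, 8 had a negative difference and 1 a positive one, at a median of -0.16, and 8 lay below the median probe set. A negative difference was found in 56.2% of all genes, and in 65.2% of all genes below the median probe set. Ifna2 differed by -0.39 ± 0.12 (SE) and Ifnk by -0.24 ± 0.09, and the gene of interferon gamma, Ifng, by 0.03. In the core of JAK-STAT signalling, 6 of 10 genes had a negative difference, and the median was -0.03. Stat2 differed by -0.17 ± 0.13, and Pias1, an inhibitor of STAT signalling, by 0.09 ± 0.06. Among other IRF genes, Irf1, which interferon gamma induces, read 6.80, 6.69 and 6.95 against 6.46, 6.66 and 6.67. All MLC-SOCS-3 values of Irf1 were below the controls, by -0.21 ± 0.10, and Irf2 differed by 0.12 ± 0.12. Of the 12 sensing and adaptor genes, 8 were negative, with a median of -0.01. Myd88, the adaptor of Toll-like receptors, differed by 0.18 ± 0.07 with no overlap of the groups, and Ticam1, the adaptor of TLR3, by -0.20 ± 0.09.

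Of 27 further interferon-induced genes 18 were negative, with a median of -0.02. Gbp7, a guanylate-binding protein like Gbp3, read 7.50, 7.53 and 7.72 in controls and 7.16, 7.21 and 7.28 on the MLC-SOCS-3 arrays. Its groups lay apart, and its difference was -0.37 ± 0.08 (SE; limma, unadjusted p = 0.00473, adjusted p = 0.76). Lgals3bp, a secreted binding protein of galectins, differed by -0.20 ± 0.08, also without overlap. At an unadjusted p under 0.05, 2 of the 27 were lower, where 3.5% of all genes were, and 0 higher, where 1.36% were.

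Genes that feed the class I pathway gave differences on both sides of 0. The 5 immunoproteasome genes were all negative, with a median of -0.15. Of these, Psmb10, a catalytic subunit, read 7.45, 7.44 and 7.41 in controls and 7.24, 7.23 and 7.33 on the MLC-SOCS-3 arrays. Its groups did not overlap, at -0.17 ± 0.06 (SE; limma, adjusted p = 0.82), and Psmb8 differed by -0.16 ± 0.08 with overlap. Of 6 chaperones and trimming enzymes of peptide loading, 4 were positive, with a median of 0.08. Canx, the calnexin gene, differed by 0.08 ± 0.07 and Tapbpl, a relative of tapasin, by -0.10 ± 0.09. Of 8 other class I genes 5 had a negative difference, and their median was -0.02. Cd1d1, which presents lipids to NKT cells, was dim and read 3.74, 4.22 and 4.40 against 3.52, 3.27 and 3.57, a difference of -0.67 ± 0.19. H2-M3, which presents bacterial peptides, differed by -0.17 ± 0.07, and neither gene's groups overlapped. For MHC class II, the difference was negative in 6 of 7 genes, at a median of -0.04, among them H2-Eb1 at -0.06 ± 0.13 and its activator Ciita at -0.16 ± 0.10.

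Muscle also holds immune, endothelial and connective tissue cells that express these genes, and in whole tissue fewer cells of a type and less RNA per cell cannot be told apart. Macrophage markers were positive in 9 of 12 genes, with a median of 0.07. Itgam, an integrin chain of myeloid cells, read 4.88, 5.17 and 5.14 in controls and 5.53, 5.76 and 5.61 on the MLC-SOCS-3 arrays. Its groups did not overlap, and its difference of 0.57 ± 0.11 (SE) had an unadjusted p of 0.0018 in limma, smaller than that of any of the 35 genes, and an adjusted p of 0.73. Cd68 differed by 0.51 ± 0.29, with overlap. Itgam lay below the median probe set. The other positive macrophage markers differed by 0.0073 (Cd14) to 0.15 (C1qb), among them Adgre1 at 0.06 and Csf1r at 0.05. The 3 negative ones were C1qa at -0.09, C1qc at -0.07 and Fcgr1 at -0.04. The summed log2 levels of the 12 macrophage markers ran from 79.8 to 84.5 in controls and from 81.7 to 85.5 on the MLC-SOCS-3 arrays. T and NK cell markers had a median of -0.19, with 5 of 8 negative, and sums of 37.5 to 38.6 and of 36.3 to 37.7. Of these 8, all but Cd3e lay below the median probe set, among them Cd3g, Cd4, Cd8a and Nkg7. At an unadjusted p under 0.05 in limma, 2 of the 8 were lower, where 3.5% of all genes were, and 0 higher. These were Cd3g at -0.30 ± 0.09 (SE) and Gzmb at -0.21 ± 0.07, both without overlap of the groups. B cell, dendritic cell and neutrophil markers had medians of -0.10, -0.03 and -0.06, and 11 of these 12 genes were below the median probe set. Their sums ran from 13.3 to 14.0, 26.8 to 27.3 and 18.7 to 19.1 in controls and from 13.3 to 13.6, 26.2 to 26.9 and 18.5 to 18.9 on the MLC-SOCS-3 arrays. Of the 5 dendritic cell markers 3 were negative. Zbtb46, the 1 above the median probe set, differed by -0.28 ± 0.09 (SE) without overlap of the groups. The 7 endothelial markers had a median of -0.02, the 6 fibroblast markers 0.13 and the 5 fat cell markers 0.21. Endothelial sums ran from 60.1 to 60.7 and from 59.9 to 60.5, and fibroblast sums from 61.7 to 62.2 and from 61.9 to 64.1. Fat cell sums did not overlap, at 27.7 to 28.1 in controls and 28.9 to 29.8 on the MLC-SOCS-3 arrays. All 5 fat cell markers were positive. Of these, Adipoq differed by 0.64 ± 0.10 (SE) without overlap (limma, unadjusted p = 0.000603, adjusted p = 0.69), and it lay below the median probe set. Control replicate 3, highest for the interferon genes, had a mean deviation of 0.14 for the 3 B cell markers, the highest of the 6 arrays. Of these, Ms4a1 read 4.37 there, its highest value, while Cd79a at 4.28 and Cd79b at 5.38 were below the other controls. The mean deviation on control replicate 3 was 0.04 for the endothelial markers. It was between -0.02 and 0.01 there for macrophage, T and NK cell, dendritic cell and neutrophil markers, -0.08 for fibroblast and -0.10 for fat cell markers. The part of these cells in the values above was not tested.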

How the data were processed

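RNA of 6 tibialis anterior samples was hybridised to Affymetrix arrays, 1 per sample, from 300 ng of total RNA per the labels. The authors deposited log2 intensities; the submitters' processing notes name RMA and Expression Console, and no version or genome build was found in the sources used. Values were used as deposited, over all 35557 probe sets; arrays have no counts, so the number of arrays limits the precision. The platform annotation, which can be old, gives 21789 probe sets 1 gene symbol and 1621 several; the rest are unnamed, and shared probe sets were not used for genes.

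Groups were compared with limma 3.58.1 in R 4.3.3 (lmFit, eBayes, two-sided), with Benjamini-Hochberg adjustment over all probe sets and a threshold of 0.05. Differences are MLC-SOCS-3 minus control, with moderated SE and 95% intervals; SD is over 3 arrays. The script was tested on simulated data for this comparison (35557 probe sets, 200 of them shifted 2-fold): 92% were recovered, with 8 false calls. The shifted probe sets were drawn from those above the median level, and the simulated noise was normal with the moderated spread. Differences of the 35 genes, between -0.72 and 0.64, were all smaller than 2-fold, so this recovery does not describe them.

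The genes and lists were chosen with earlier results of these data known, so lists are described by counts and medians. Arrays were given for, in each role, the 3 genes with the smallest p and the brightest, for genes whose groups did not overlap or with several probe sets (23 genes), and for Ifit1, chosen after its values were seen. Pathway lists name the 2 genes with the smallest p, plus Stat2 and Socs3; Ifng and the markers named were added later. No 2 arrays shared more than 36 values. Promoters are from RefSeq (GRCm38.p6).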

Additional observations from a re-analysis of the deposited data

How the results depend on the processing

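Alternatives were centring each array, a mean-variance trend with robust moderation, only listed probe sets, 1 probe set per gene, only probe sets above the median level, the replicate number as a block, the mean of all probe sets of a gene, and leaving out each array; leaving out Nlrc5 was added after seeing the data. None of the 35 genes passed an adjusted p of 0.05 in any of them. With 1 probe set per gene, or the mean of a gene's probe sets, 1 gene in all passed, and without control replicate 2, over all probe sets, 1 probe set (0 to 1 over arrays left out). With the replicate block, 0 probe sets passed, 26 of the 35 differences were negative, and the lowest adjusted p of the 35 genes was 0.862 (Ifi35); the numbers do not pair the samples, as same-numbered arrays correlated at -0.04 to -0.02, and the block changed no call.

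By the mean of probe sets, 4 of the 35 genes were lower at an unadjusted p under 0.05. Above the median level 0 were higher, since Oas1a is dimmer, and without MLC-SOCS-3 replicate 3 also 0 (0 to 1 over arrays left out). Above the median level the interferon genes' median was -0.064, over 1 gene. Centring gave -0.0069 for JAK-STAT, 0.0069 for sensing and adaptor genes, and turned Ddx58 to 0.0070, Ifnar2 to 0.012 and Irf3 to 0.015.

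With arrays left out in turn, the median ran from -0.016 to 0.044 for the receptors, -0.097 to -0.025 for the transcription factors, -0.059 to 0.033 for the sensors, -0.20 to -0.060 for the regulators, -0.046 to 0.0075 for the effectors, -0.56 to -0.26 for the GTPases, -0.21 to -0.088 for class I presentation, -0.040 to 0.034 for other IRFs, -0.20 to -0.11 for interferons, -0.043 to 0.0064 for JAK-STAT, -0.019 to 0.0094 for sensing and adaptors, -0.11 to 0.0091 for further induced genes, -0.16 to -0.11 for the immunoproteasome, 0.019 to 0.095 for peptide loading, -0.099 to -0.0083 for other class I and -0.13 to 0.037 for class II genes. Differences that changed sign ran from -0.059 to 0.033 for Ddx58, -0.18 to 0.067 for Ifitm3, -0.054 to 0.074 for Ifnar2, -0.0095 to 0.063 for Ifngr1, -0.044 to 0.039 for Irf3, -0.12 to 0.081 for Irf8, -0.16 to 0.010 for Irf9, -0.16 to 0.048 for Irgm1, -0.21 to 0.0075 for Oasl1, -0.051 to 0.084 for Rsad2 and -0.18 to 0.057 for H2-Eb1. The cause of these shifts was not tested. Iigp1, Gbp3, Ifi35, Oas1a and the 5 class I genes kept their sign in all of these settings that included them.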
